A study of Mus musculus with 15 samples.

Results

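The stretch described here is the centromere-proximal 5 Mb of the mouse autosomes, the sequence that follows the assembly gap at the start of chromosomes 1 to 19. Its members are all chromatin domains, each placed by the deposited lists in a closed class (het), an open class (euch) or a class between them (int), whose midpoint lies between 3000000 and 8000000 in the mm9 genome. The first 3 Mb of each chromosome are assembly gap and were left out. The rule found 12107 of 346085 domains in the 3 maps together. By map, 3497 of 94111 domains belonged to it in 2-month wild type, 3985 of 120579 in the Ezh1/2 knockout at postnatal day 14 (P14) and 4625 of 131395 in P14 wild type. Membership uses position only, and the members' midpoints ran from 3001000 to 8000000 over all maps, with the nearest domain outside at 8001000. Of the domains that cross 8 Mb, 11 fell inside and 5 outside in 2-month wild type, 11 and 6 in the knockout, and 7 and 9 in P14 wild type. The rest of each autosome, against which they were set, held 81817, 107563 and 116673 domains in the same order.

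Mouse autosomes carry the centromere at one end, so each has a single long arm that starts with centromeric and pericentromeric satellite DNA. That satellite DNA is constitutive heterochromatin, which stays compact through most of the cell cycle and is marked by methylated histone H3 and bound by HP1 proteins. The repeats are not resolved in the genome assembly and appear there as a gap. PRC2, whose catalytic subunits are EZH1 and EZH2, lays down a different methyl mark on histone H3 and is known for silencing developmental genes in facultative heterochromatin.

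Hepatocytes were isolated by liver perfusion from 15 mice in 3 groups of 5 and profiled by srHC-seq, in which crosslinked chromatin is sonicated and DNA fragments are separated by size to tell sonication-resistant chromatin from open chromatin. One group was wild type and 2 months old, 2 of them male and 3 female. Another was P14 mice of genotype Alb-Cre;Ezh1-/-;Ezh2f/f (2 of them male and 3 female). In these animals Ezh1 is lost in every cell, while the albumin promoter drives Cre so that floxed Ezh2 is lost in albumin-expressing cells, chiefly hepatocytes. The reference for both was wild-type mice at P14 (3 of them male and 2 female). Each group is represented by 1 deposited map, read as a pool of its animals, so no difference below has a replicate check and none was tested. The mix of sexes differed between the P14 wild type and the other 2 groups, and its part in any difference cannot be told apart from age or genotype. The maps carry no read counts and no expression, so the depth behind a call is unknown and the hepatocyte label could not be checked against marker genes. A pool cannot tell a class held by all cells from a mixture of cells, and how calls were scaled within each map is not given in the sources used here.

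Pooled over the 19 autosomes, the proximal 5 Mb was made of the same classes as the rest of the chromosomes in nearly the same proportions, with somewhat more het at P14. Het covered 48.1% of member bases in 2-month wild type, 53.2% in the knockout and 50.1% in P14 wild type. The rest of the autosomes stood at 47.3%, 46.8% and 46.3% in the same order. The proximal het share was thus higher than that of the rest by 0.796, 6.33 and 3.75 percentage points. Euch covered 42.9%, 38.4% and 40.8% of member bases, against 44.1%, 43.7% and 43.9% of the rest, and int 9.02%, 8.45% and 9.09%, against 8.63%, 9.49% and 9.81%. Chromosome 14 alone carried much of this excess of het. Without it the difference in het share was -1.83 points in 2-month wild type, 3.87 in the knockout and 1.53 in P14 wild type. Counted by autosome, the proximal het share exceeded that of the rest on 10 of 19 autosomes in 2-month wild type, 13 in the knockout and 10 in P14 wild type. Set against the next 5 Mb along the chromosome instead, where het covered 52.3%, 54.6% and 52.3%, the proximal members were less closed in all 3 maps, so the direction of the difference depended on the sequence they were set against.

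**Figure D1:**
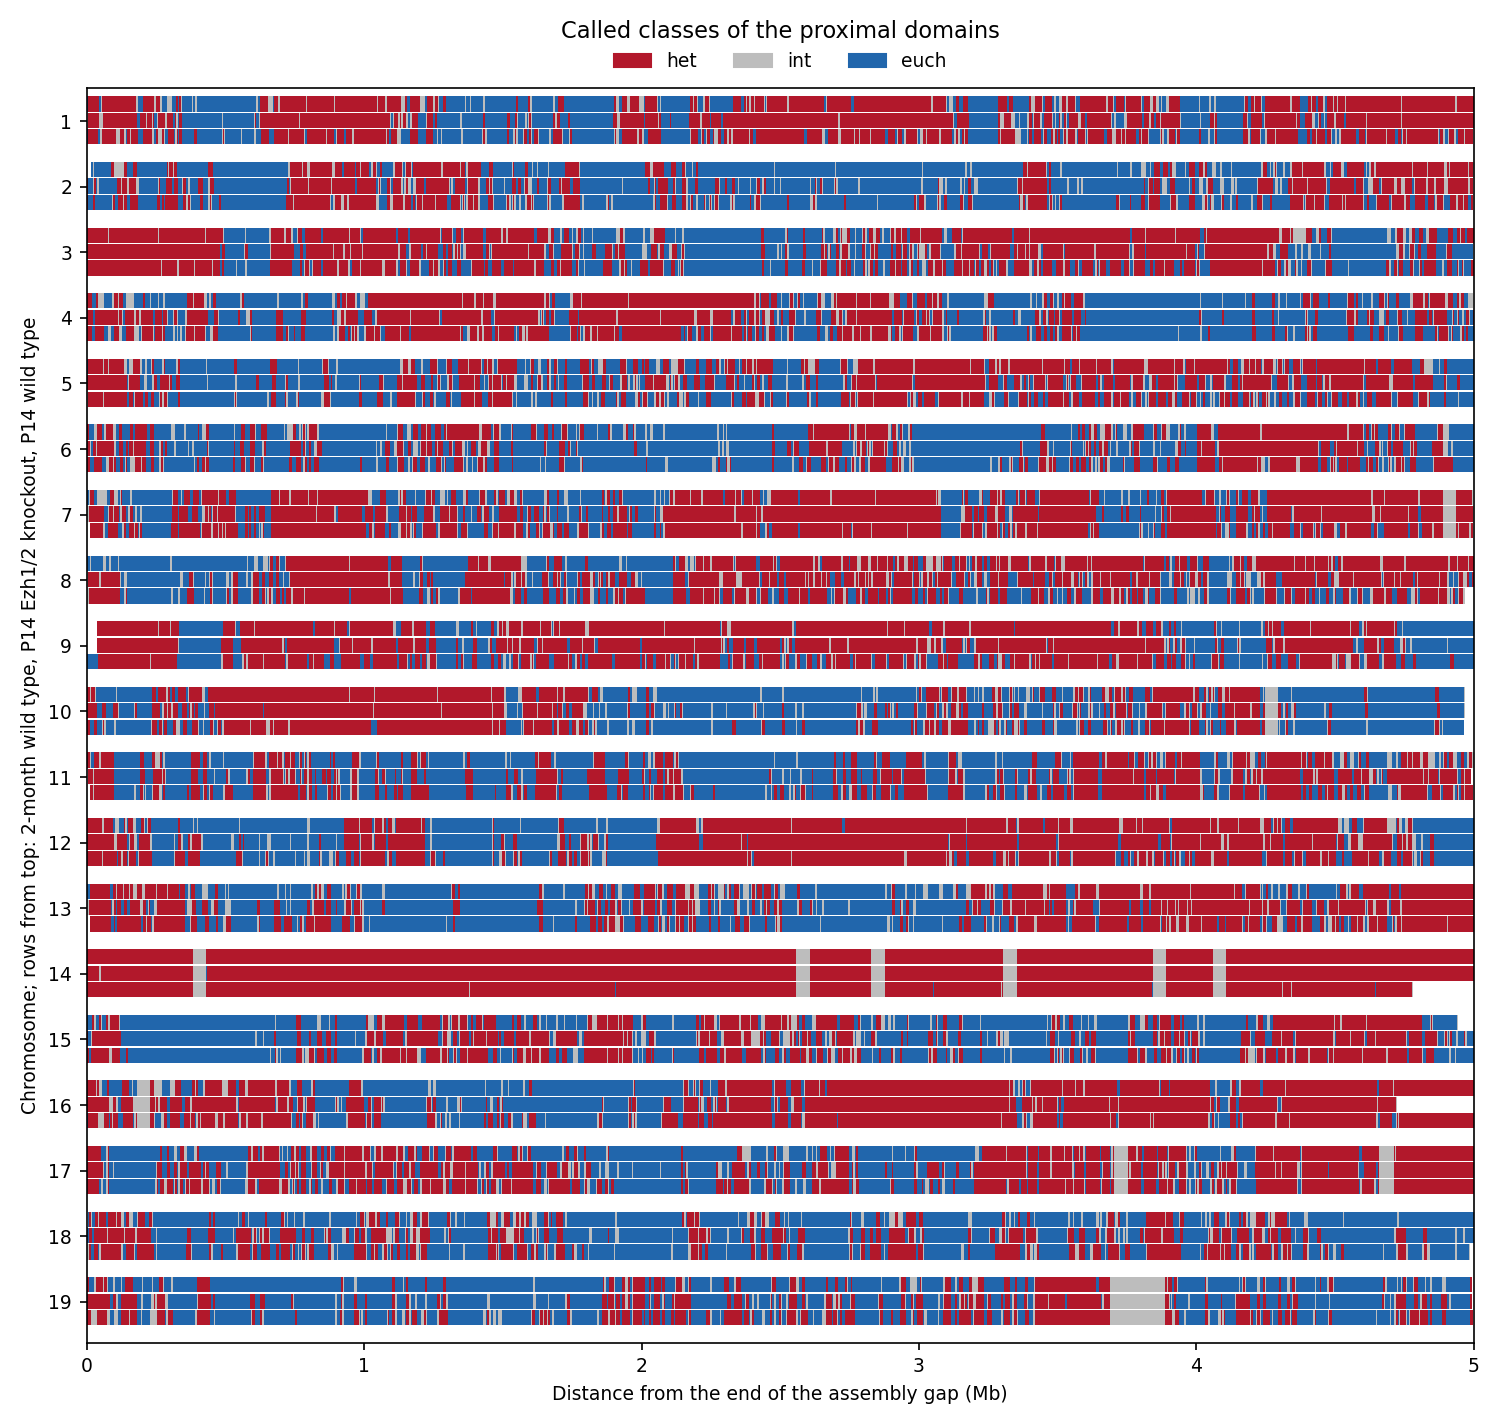
Each chromosome has 3 rows, from the top 2-month wild type, P14 Ezh1/2 knockout and P14 wild type, and the horizontal axis is the distance from the end of the assembly gap in Mb. Colours give the class of each member domain (red het, grey int, blue euch), and white ends are stretches whose domain had its midpoint outside the rule; chromosome 14 is nearly all het in all 3 maps.

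The proximal stretches of single chromosomes differed far more than the pooled values do. Openness is the euch share minus the het share, so a stretch with nothing but het scores -1 and one with nothing but euch scores 1. Over the 19 proximal stretches it ran from -0.947 to 0.538 in 2-month wild type, from -0.946 to 0.306 in the knockout and from -0.927 to 0.302 in P14 wild type. The rests of the chromosomes, which average over longer sequence, stayed between -0.214 and 0.337, -0.257 and 0.206, and -0.267 and 0.130. Fixed 5 Mb windows elsewhere on the autosomes, 454 of them, are the fairer measure. Their SD of openness was 0.331, 0.290 and 0.263 in the 3 maps, against 0.357, 0.3156 and 0.295 for the 19 proximal windows, so the proximal ends varied about as much as other 5 Mb windows did.

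**Figure D2:**
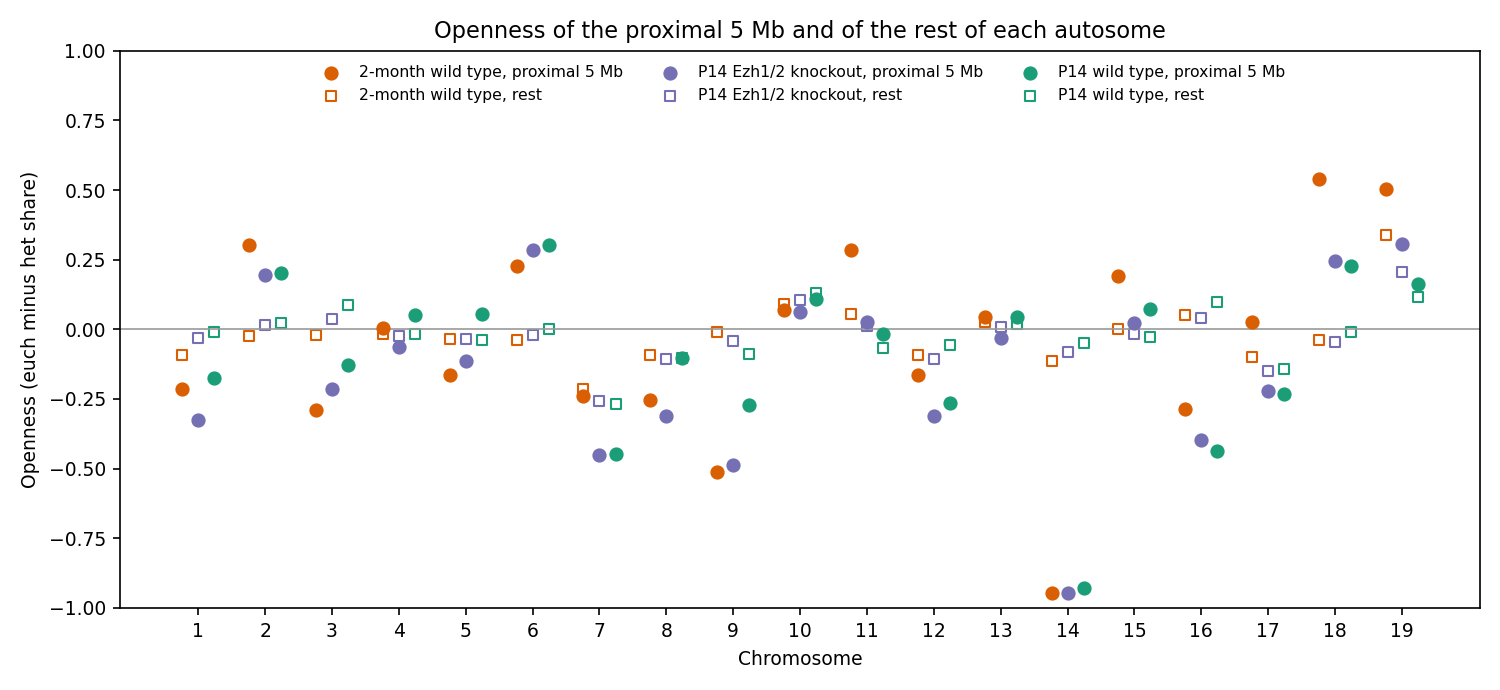
Openness (euch share minus het share) is plotted for each autosome, with filled circles for the proximal 5 Mb and open squares for the rest of the chromosome, in the order 2-month wild type, P14 Ezh1/2 knockout and P14 wild type from left to right. Proximal values spread from -0.947 on chromosome 14 to 0.538 on chromosome 18, while the rests lie between -0.267 and 0.337.

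Chromosome 14 was the closed extreme. Het covered 94.7% of its proximal members in 2-month wild type, 94.6% in the knockout and 93.1% in P14 wild type, and euch at most 0.376%. Its 5 Mb window was the most closed of all 473 autosomal windows of that size in each of the 3 maps. Only 14 domains made up the stretch in 2-month wild type, 16 in the knockout and 30 in P14 wild type, where every other autosome had at least 128. The longest, from 3430001 to 5558000, was a single het domain of 2128 kb in 2-month wild type. The knockout had nearly the same domain, of 2126 kb from 3432001. In P14 wild type, 99.6% of that sequence was het too, but it was broken into domains of 948 kb (3430001 to 4378000), 522 kb (4382001 to 4904000) and 650 kb (4908001 to 5558000). These 3 are the longest het members of the P14 wild-type map. The second longest in the other maps also lay on chromosome 14, with 1424 kb from 7108001 in 2-month wild type and 1474 kb from the same base in the knockout. Most of the int sequence of this stretch was in blocks of 48 to 50 kb with the same ends in all 3 maps, 5 blocks that held 242 kb of the 290, 300 and 312 kb called int. Int blocks of 48 kb with the same ends in all 3 maps also lay on chromosomes 7, 16 and 17. What sets such blocks was not tested. In GRCm38.p6, a later build than mm9, 19 of the first 20 protein-coding genes of chromosome 14 carry a Gm number in place of a gene name. Positions in that build were not used, so no domain was assigned to a gene.

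By het share, other chromosomes came next in each map. In 2-month wild type chromosome 9 had 73.2% het and chromosome 16 had 61.0%. In the knockout chromosome 9 had 71.6% and chromosome 7 had 69.3%. In P14 wild type chromosome 16 had 68.2% and chromosome 7 had 68.1%. By euch share, chromosome 18 led in 2-month wild type with 71.2%, followed by chromosome 19 with 69.6% and chromosome 2 with 61.1%. Chromosome 6 led in the knockout with 59.7%, ahead of chromosome 19 with 59.5% and chromosome 18 with 57.7%. It also led in P14 wild type with 60.5%, ahead of chromosome 18 with 56.6% and chromosome 2 with 55.3%. By openness some neighbours trade places. Chromosome 3 had -0.290 and chromosome 16 had -0.287 at 2 months, chromosome 19 had 0.306 and chromosome 6 had 0.284 in the knockout, and chromosome 7 had -0.448 and chromosome 16 had -0.437 in P14 wild type.

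In each map the longest open domain was shorter than the longest closed one, which lay on chromosome 14. Without that chromosome the longest het member measured 658 kb in 2-month wild type, 736 kb in the knockout and 494 kb in P14 wild type. In P14 wild type it was then shorter than the longest euch member. The longest euch member lay near the start of chromosome 15 in all 3 maps. It measured 558 kb in 2-month wild type (3120001 to 3678000), 484 kb in the knockout (3124001 to 3608000) and 514 kb in P14 wild type (3148001 to 3662000). The first protein-coding genes of chromosome 15 in GRCm38.p6 are Selenop, which encodes the liver's secreted selenium carrier, Ccdc152 and Ghr, the growth hormone receptor gene, named here for their order alone. On chromosome 4 a euch domain of 404 kb (6604001 to 7008000) ranked second in the knockout and one of 352 kb (6582001 to 6934000) ranked second in P14 wild type. Chromosome 19 held the second longest of 2-month wild type, 472 kb from 3446001 to 3918000. The knockout map divided that sequence into 14 domains and the P14 wild-type map did so too, with 86.0% and 89.8% of it euch.

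The sequence closest to the gap was mostly closed. In the first 100 kb, het covered 56.4% of bases in 2-month wild type, 80.3% in the knockout and 69.5% in P14 wild type, pooled over autosomes. Euch covered 28.3%, 10.8% and 19.4%. The median het share of the other 24124 windows of 100 kb on the autosomes was 46% in every map. At least 50% of the first 100 kb was het on 12 of 19 autosomes in 2-month wild type, where 48.2% of all 100 kb windows met that mark. It was so on 18 of 19 in the knockout, where 47.6% of all windows did, and on 17 of 19 in P14 wild type, where 46.6% did. Leaving out any 1 autosome kept the pooled het share between 54.0% and 59.6%, 79.2% and 84.1%, and 67.8% and 72.3%.

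Single chromosomes differed widely here. Chromosome 3 was 94% het in 2-month wild type and 100% het in both P14 maps, and chromosome 12 was 88%, 98% and 98% het. Chromosome 2 was the open exception, with 66% euch in 2-month wild type, 76% in the knockout and 78% in P14 wild type. Chromosome 8 had no het in its first 100 kb at 2 months and 76% euch, against 90% het in the knockout and 92% in P14 wild type. Insr, the insulin receptor gene, is the first protein-coding gene of chromosome 8 in GRCm38.p6. It is named for its order alone and was not placed in these 100 kb. Chromosome 10 stood at 26% het in 2-month wild type, 58% in the knockout and 26% in P14 wild type. The first domain after the gap that was not int was het on 11 autosomes in 2-month wild type, 14 in the knockout and 13 in P14 wild type. Of all het and euch domains on the autosomes, 52.3%, 51.2% and 50.6% were het in the same order, and 11 of 19 is close to that share. The class of this first domain was the same in all 3 maps on 12 autosomes, het on 9 of them and euch on 3.

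**Figure D3:**
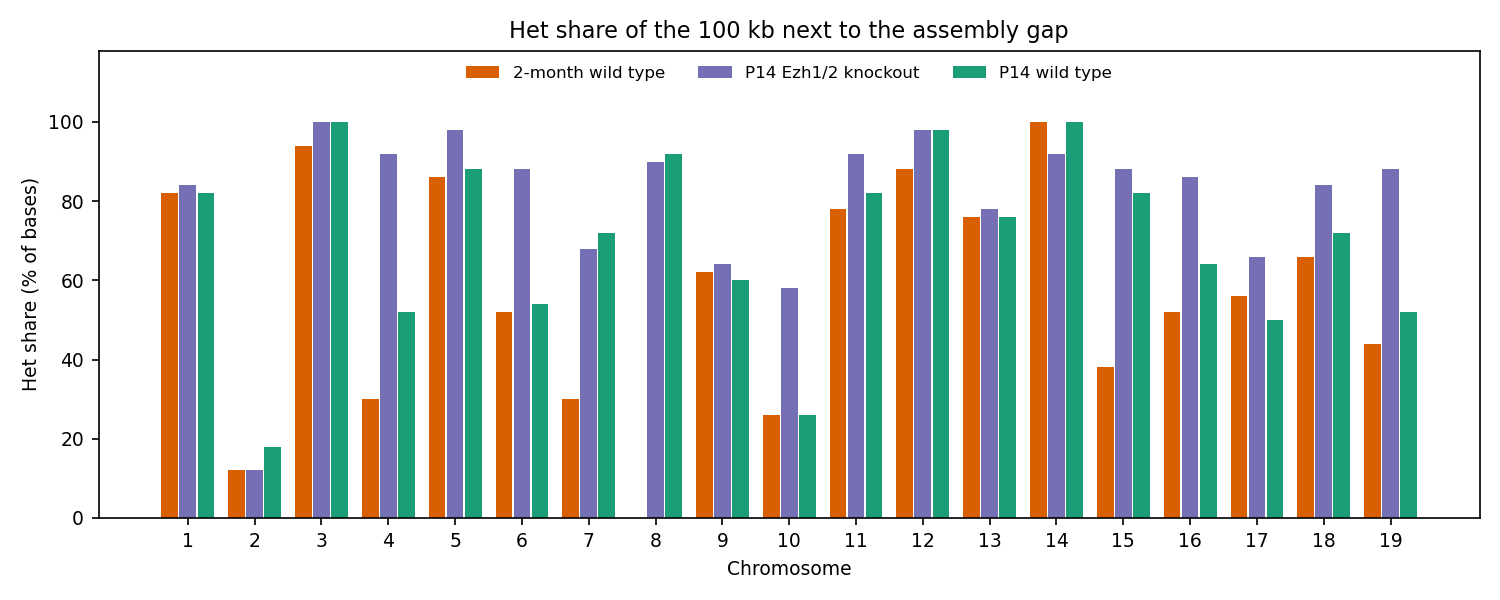
Bars give the het share, in percent of bases, of the 100 kb next to the assembly gap on each autosome, for 2-month wild type, P14 Ezh1/2 knockout and P14 wild type from left to right. Chromosome 8 has no het at 2 months against 92% in P14 wild type, and chromosome 2 is low in all 3 maps.

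Most chromosomes differed from P14 wild type in this band. At 2 months the het share of the first 100 kb was lower than in P14 wild type on 13 autosomes, higher on 2 and equal on 4, with a median difference of -6 points. Over all 100 kb windows 44.8% had a lower and 38.9% a higher het share at 2 months. In the knockout it was higher than in P14 wild type on 13 autosomes, lower on 4 and equal on 2, with a median difference of 6 points, where 41.2% of all windows had a higher and 41.7% a lower share. Among the 50 steps of 100 kb that make up the 5 Mb, the first had the highest pooled het share in both P14 maps, the others reaching 69.1% in the knockout and 65.1% in P14 wild type. At 2 months it did not, since the step 4400 kb from the gap reached 67.6%. The gain of het in the knockout, 10.8 points, was not the largest either, as the step at 4500 kb had 11.4 points.

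Away from the gap the chromatin opened quickly and then closed again. Het fell step by step to a low at 500 to 600 kb, with 23.2% in 2-month wild type, 31.7% in the knockout and 31.3% in P14 wild type. Euch was at its highest of the whole 5 Mb in the same step, with 72.8%, 62.1% and 63.2%. By 900 to 1000 kb the het share was back at 56.7%, 60.9% and 58.1%. These are averages over 19 chromosomes.

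**Figure D4:**
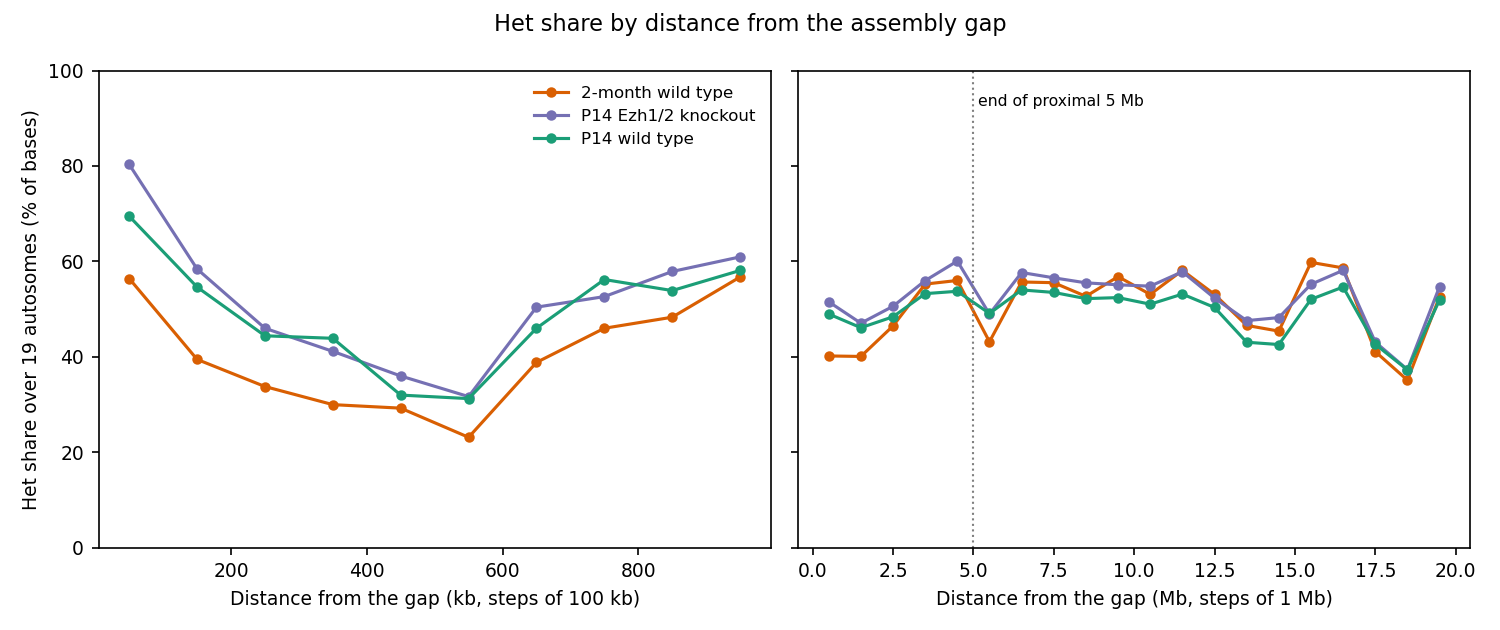
Lines give the het share, in percent of bases pooled over 19 autosomes, by distance from the assembly gap in steps of 100 kb over the first Mb (left) and of 1 Mb over 20 Mb (right), for 2-month wild type, P14 Ezh1/2 knockout and P14 wild type. Het is high next to the gap, lowest at 500 to 600 kb, and over the first 2 Mb lower at 2 months than in both P14 maps.

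On the scale of 1 Mb the inner part was more open than the outer part at 2 months. Het covered 40.2% of the first Mb and 40.1% of the second in 2-month wild type, 51.5% and 47.1% in the knockout, and 49.0% and 46.1% in P14 wild type. In the fifth Mb it covered 56.0%, 60.1% and 53.7%. Over the 15 Mb beyond the proximal stretch, het shares per Mb ran between 35.1% and 59.8% in 2-month wild type, 37.3% and 58.1% in the knockout, and 37.3% and 54.6% in P14 wild type. The steps inside the 5 Mb lay within these ranges, except the fifth Mb in the knockout.

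Domains were fewer at 2 months than at P14, as elsewhere on the autosomes. The proximal members numbered 36.4 per Mb in 2-month wild type, 41.8 in the knockout and 48.7 in P14 wild type, against 35.3, 46.4 and 50.3 per Mb in the rest. Mean het length was 40.7 kb in 2-month wild type, 36.6 kb in the knockout and 28.9 kb in P14 wild type, and mean euch length 37.9, 28.3 and 25.7 kb. The median member measured 10 kb in every map. Het members of at least 200 kb numbered 33 in 2-month wild type, 31 in the knockout and 22 in P14 wild type, and held 29.5%, 26.6% and 17.1% of het bases. In the rest such domains held 25.3%, 17.5% and 13.7%. Without chromosome 14 the proximal shares were 20.8%, 18.5% and 9.74%. Euch members of that length numbered 36, 17 and 12 and held 25.1%, 13.2% and 8.55% of euch bases, against 32.1%, 16.0% and 12.2% in the rest.

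The comparison of 2-month with P14 wild-type hepatocytes asks how chromatin is rearranged as the liver matures. Pooled over the autosomes, the balance of changes in the proximal 5 Mb went towards open chromatin, while in the rest it was close to even. Of the bases in P14 wild-type members, 26.5% had another class at 2 months. Moves towards euch took up 15.0% and moves towards het 11.5%, a net of 3.52 percentage points. In the rest these shares were 13.9% and 14.2%, a net of -0.246 points. Of the het bases at P14, 6.54 Mb (13.8%) were euch at 2 months, and of the euch bases 5.14 Mb (13.3%) were het, against 14.2% and 16.2% in the rest. Of these direct moves, it was the loss of euch in which the proximal members and the rest differed more.

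This net was uneven between chromosomes. It was positive on 10 autosomes and negative on 9, where 52.0% of all 473 windows of 5 Mb had a positive net. Chromosome 19 had the highest with 22.7 points, followed by chromosome 18 with 20.4 and chromosome 11 with 18.7. Chromosome 9 had the lowest with -14.5 points, then chromosome 5 with -13.0 and chromosome 3 with -9.68. The rest of chromosome 19 also moved towards euch, by 14.2 points, whereas the rest of chromosome 18 had a net of -1.27 and the rest of chromosome 9 one of 5.03. The proximal net lay above that of the rest on 12 of 19 autosomes. The median of the 19 was 1.20 points, against a median of 0.336 for the rests, and the pooled net without chromosome 19 was 2.46. In fixed 5 Mb windows the net had a median of 1.44 points and an SD of 11.4 over the 19 proximal ones. Over the 454 other windows the median was 0.64, the SD 14.8 and the range -45.0 to 26.1. The proximal nets thus lay within the range of windows of that size.

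**Figure D5:**
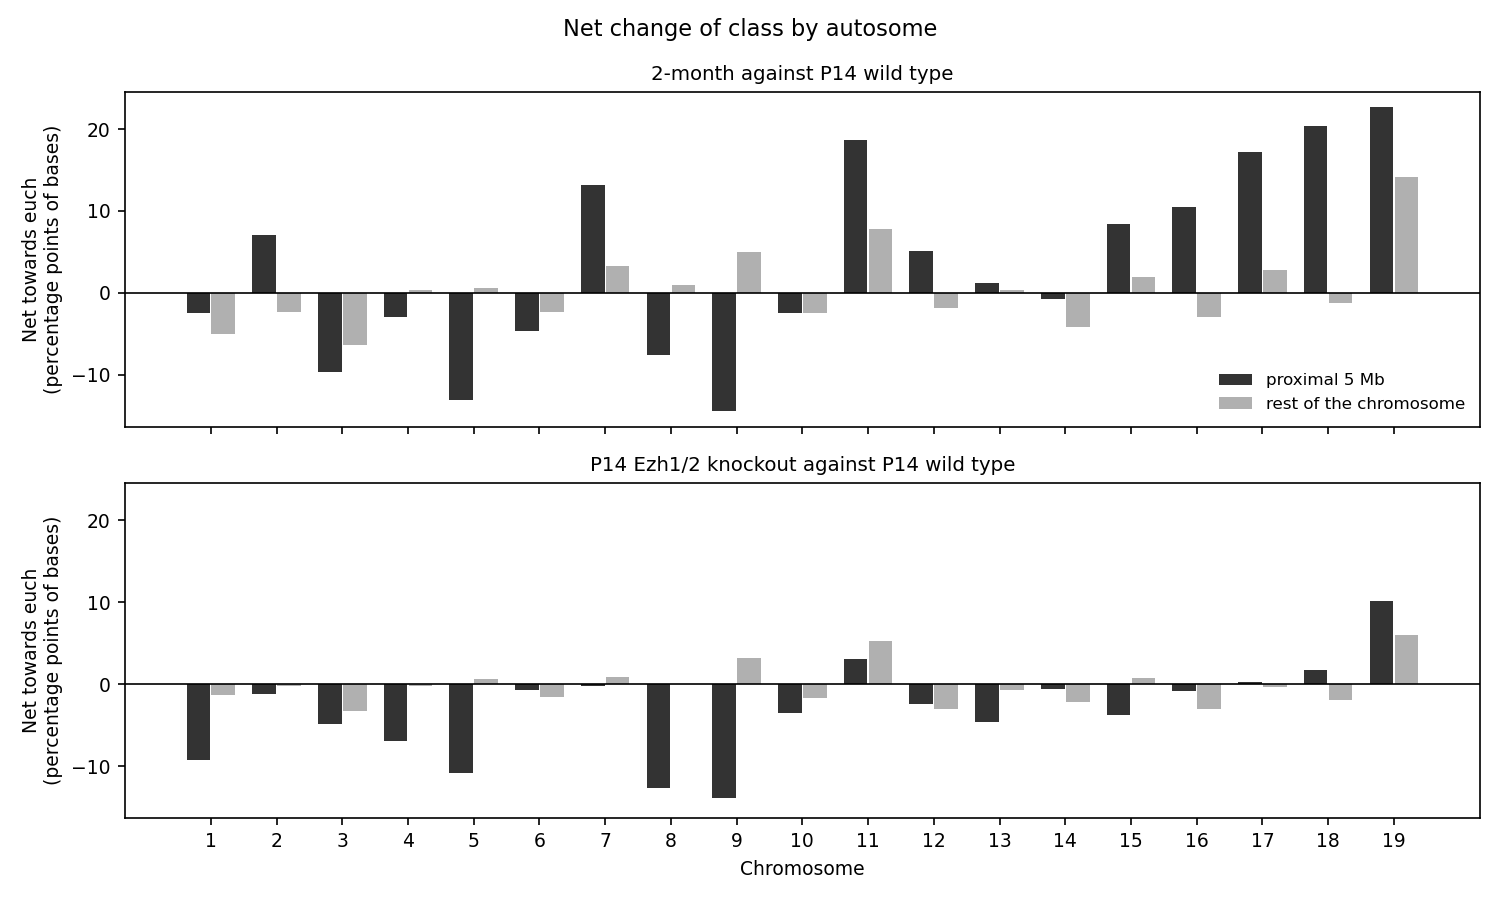
Bars give the net share of bases that moved towards euch, in percentage points, on each autosome, with dark bars for the proximal 5 Mb and grey bars for the rest of the chromosome. The upper panel shows 2-month against P14 wild type, with 22.7 points on chromosome 19 and -14.5 on chromosome 9, and the lower panel the P14 Ezh1/2 knockout against P14 wild type, with negative values on 15 of 19 autosomes.

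The opening with age lay mostly in the inner 2 Mb. The net was 11.1 points in the first Mb after the gap and 8.29 in the second, positive on 14 and 12 of 19 autosomes. Among all 1 Mb windows 56.2% rose in openness with age, and 12 of 19 is not far from that share. It was 2.17 in the next Mb and -2.46 in the fifth. The sixth Mb, just outside the proximal stretch, had 7.74 points again, so a high net was not confined to the sequence next to the gap.

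Large shifts of whole windows of 1 Mb were few. Among the 95 proximal windows, 2 were more open by over 0.5 in openness at 2 months (2.11%), and 2.00% of all 2406 autosomal windows were. In the other direction 4 were more closed by over 0.5 (4.21%), against 8.89% of all windows. At a change of 0.25 there were 25 more open (26.3%, against 20.7% of all windows) and 8 more closed (8.42%, against 21.3%). Any rise was seen in 54 windows, where 56.2% of all windows rose, and any fall in 38, where 42.9% fell. Windows that closed by over 0.25 with age were thus a smaller share of the proximal windows than of all windows.

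The windows that gained most lay on chromosomes 7 and 17, both from 4000001 to 5000000. The window on chromosome 7 had an openness of 0.388 at 2 months, against -0.192 in P14 wild type, and that on chromosome 17 had 0.212 against -0.336. The first Mb of chromosome 18 followed with 0.536 at 2 months, against 0.058. Next came chromosome 19 from 4000001 to 5000000 with 0.748 against 0.332 and from 7000001 to 8000000 with 0.716 against 0.312. Among the first genes of chromosome 19 in GRCm38.p6 is Cpt1a, which encodes the liver enzyme that commits long-chain fatty acids to oxidation. It comes after Ighmbp2 and Mrpl21 in that order, was not placed in either window and was not linked to their opening. The first genes of chromosomes 7, 17 and 18 are not named here. The window that closed most was on chromosome 8, from 6000001 to 7000000, with -0.646 at 2 months, against 0.114 in P14 wild type. The window after it, to 8000000, had -0.666 against -0.016. Chromosome 3 from 6000001 to 7000000 had -0.872 against -0.344, chromosome 9 from 5000001 to 6000000 had -0.944 against -0.442, and chromosome 5 from 6000001 to 7000000 had -0.860 against -0.382.

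Direct exchanges between the 2 outer classes were in short pieces. In 936 stretches het became euch and in 741 euch became het, both with a median of 6 kb. Such stretches were not counted in the rest of the autosomes, so no share there can be set beside these counts. The longest that opened were 64 kb on chromosome 8 (4948001 to 5012000), 56 kb on chromosome 16 (5074001 to 5130000) and 46 kb on chromosome 17 (4668001 to 4714000). The longest that closed were 48 kb on chromosome 13 (6188001 to 6236000), 40 kb on chromosome 9 (6142001 to 6182000) and 36 kb on chromosome 8 (6332001 to 6368000).

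The comparison of the P14 knockout with P14 wild type asks what loss of Ezh1 and Ezh2 does at a fixed age. Here the pooled balance in the proximal 5 Mb went towards closed chromatin. Of the bases in P14 wild-type members, 23.0% had another class in the knockout, with 9.89% moved towards euch and 13.1% towards het. That is a net of -3.22 percentage points, against -0.335 in the rest, where 12.5% moved towards euch and 12.8% towards het. Of the het bases 3.63 Mb (7.65%) were euch in the knockout, against 11.2% in the rest. Of the euch bases 5.59 Mb (14.4%) were het, against 12.7%. With the 5 kb on either side of each domain edge of the P14 wild-type map left out, the net was -1.04 points. Its difference from the rest was then -1.80 points, against -2.88 over all bases.

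The net was negative on 15 of 19 autosomes, where 49.3% of all 5 Mb windows had a negative net, and the rests of the chromosomes were negative on 12. On chromosomes 6, 7, 14 and 16 it was between -0.862 and -0.281 points. The proximal net lay below that of the rest on 12 of 19 autosomes, with a median difference of -1.62 points. Chromosome 9 had the lowest net with -13.9 points, chromosome 8 had -12.6 and chromosome 5 had -10.8, while the rests of these chromosomes had 3.24, 0.0275 and 0.588. Chromosome 19 had the highest with 10.1, then chromosome 11 with 3.09 and chromosome 18 with 1.72. In fixed 5 Mb windows the knockout net had a median of -2.44 points and an SD of 5.80 over the 19 proximal ones. Over the 454 other windows the median was 0.44, the SD 8.48 and the range -21.8 to 20.2, which holds all proximal nets. The net was -2.63 points in the first Mb and -7.32 in the fifth, where 16 autosomes were negative. Among all 1 Mb windows 46.3% fell in openness in the knockout. Outside the proximal stretch, 14 autosomes were negative at 11 to 12 Mb and at 14 to 15 Mb from the gap. From 8 Mb to 13 Mb the pooled net was -3.22 as well, so the shift did not end where the proximal stretch does.

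No proximal window was more open by over 0.5 in the knockout, where 0.0416% of all windows were, and 1 of 95 was more closed by over 0.5 (1.05%, against 0.790%). At 0.25 there was 1 more open (1.05%, against 4.95%) and 8 more closed (8.42%, against 11.0%). The windows with a fall of any size numbered 58 of 95 (61.1%), against 46.3% of all windows, and those with a rise 35, where 52.7% of all windows rose.

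The largest gains of openness in the knockout were on chromosome 19 from 4000001 to 5000000, with 0.584, compared with 0.332 in P14 wild type, and in the window after it, with 0.274 against 0.068. Chromosome 6 from 6000001 to 7000000 had 0.672 against 0.482, chromosome 19 from 7000001 to 8000000 had 0.502 against 0.312, and the first Mb of chromosome 13 had -0.034 against -0.204. The largest losses were on chromosome 8 from 6000001 to 7000000, with -0.426 against 0.114, and chromosome 5 from 7000001 to 8000000, with -0.426 against -0.006. Chromosome 8 from 7000001 to 8000000 had -0.432 against -0.016, chromosome 9 from 5000001 to 6000000 had -0.818 against -0.442, and chromosome 3 from 6000001 to 7000000 had -0.674 against -0.344. The P14 wild-type map is the reference of both the age and the knockout comparison, so an error in that map would enter both.

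In the knockout het became euch in 691 stretches, with a median of 4 kb, and euch became het in 896, with a median of 6 kb. These too were not counted in the rest of the autosomes. The longest that opened were 24 kb on chromosome 16 (5106001 to 5130000) and 22 kb each on chromosome 15 (7252001 to 7274000) and chromosome 16 (4596001 to 4618000). The longest that closed were 34 kb on chromosome 6 (5612001 to 5646000), 32 kb on chromosome 8 (6372001 to 6404000) and 26 kb on the same chromosome (7600001 to 7626000).

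Whole domains can also be counted. Of 1643 het members of P14 wild type, 582 (35.4%) had under 50% of their bases still het at 2 months, where 33.1% of all autosomal het domains did. Of 1505 euch members, 520 (34.6%) were no longer mostly euch, against 39.8% of all. In the knockout 347 het members (21.1%) had lost their class, against 26.1% of all, and 519 euch members (34.5%), against 32.3%. Loss of class differed more by length than between the proximal and all domains. Of het members under 10 kb, 55.1% lost their class with age, against 52.5% in the rest, and 39.8% in the knockout, against 45.1%. Of het members of at least 50 kb, 8.02% did so with age, against 6.08%, and 1.89% in the knockout, against 1.96%. For euch under 10 kb the shares were 48.0% with age, against 53.6% in the rest, and 47.0% in the knockout, against 46.0%. From 50 kb on they were 2.45% with age, against 5.41%, and 1.96% in the knockout, against 1.78%. The fall with length was thus present in the rest of the autosomes too. Int members, mostly narrow strips between the other classes, had lost their class in 82.9% of cases with age and 80.6% in the knockout, against 85.4% and 80.9% of all int domains.

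Domain edges were found again about as often as elsewhere. Of 4606 edges of P14 wild-type members, 36.1% had an edge within 2 kb, the grid step of the maps, at 2 months, against 32.9% in the rest. With the knockout the share was 45.4%, against 46.2% in the rest. All 3 maps gave the same class to 66.1% of member bases and to 64.1% of bases in the rest. Het in all 3 maps made up 36.1% of member bases, against 32.1% in the rest, and euch in all 3 maps 29.0%, against 30.9%. These shares include chromosome 14, nearly all het, where only 0.795% of member bases changed class with age and 1.05% in the knockout. They were not taken without it.

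The opposite ends of the autosomes had a higher net towards euch. With age the net was 3.52 points in the proximal and 8.41 in the distal 5 Mb of the autosomes, and with the knockout it was -3.22 and 3.80. In the next 5 Mb after the proximal stretch it was -0.187 with age and -3.22 in the knockout. With 1 map per group none of these differences could be tested.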

How the data were processed

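Per the labels' protocols, hepatocyte chromatin was crosslinked and sonicated, and DNA fragments were size-selected with beads. Per the submitters' processing notes, bcl2fastq 2.19.0.316, STAR 2.4.2a, bedtools and build mm9 were used; the domain caller and its thresholds are not given in the sources used here. The authors deposited 9 lists of intervals, 1 per class and group. Each list is named in the sample descriptions of its group, apart from the 2-month euch list, which the description of 1 female omits, and was read as a pool. The deposited score column is 0 in every row, so depth is unknown. On the autosomes each map tiled the genome without overlap, in steps of 2 kb up to the last base.

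Class shares use whole member domains. Changes use the bases of P14 wild-type members. Openness was taken in full windows of 1 Mb. Regions were named by rank: the 3 longest het and euch members per map, the 5 largest rises and falls among 1 Mb windows, the 3 longest stretches from one extreme to the other, and the 3 highest and lowest autosomes. The closing section lists the alternatives tried. Positions are 1-based mm9. Gene order comes from RefSeq's GRCm38.p6 table, names only. Functions were tested on simulated data. Python 3.11.15, NumPy 2.4.6, pandas 2.3.3 and Matplotlib 3.10.9 were used. With 1 map per group there is nothing to test over samples, and chromosomes are not replicates, so p-values are not given. The members and lists were chosen with earlier results of these data known. The 100 kb next to the gap was looked at after the maps had been read.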

Additional observations from a re-analysis of the deposited data

How the results depend on the processing

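No paired analysis was possible because each list pools the replicates of its group, and for the same reason no replicate could be left out. Over 22 results and 149 alternatives, 12 values changed sign and 39 moved. A share or net was marked as moved beyond a binomial error from its number of domains. That error treats neighbouring domains of unequal length as independent, so the mark is a rough guide and no test. A count of windows or a density was marked as moved beyond a factor of 1.5. The causes were not tested. Sign changes concerned the difference in class share between proximal members and the rest. With a width of 3 Mb the het difference was -4.58 points in 2-month wild type (2.99 in the knockout, 1.62 in P14 wild type) and the euch difference 4.61 (-1.41, -0.265). With the next 5 Mb as comparison the het difference was -4.21 in 2-month wild type, -1.47 in the knockout and -2.22 in P14 wild type, and the euch difference 3.19, 1.75 and 2.01. Without 1 autosome the het difference at 2 months ran from -1.83 (without chromosome 14) to 2.50, and the euch difference reached 1.21. In the knockout the lowest het difference was 3.87 and the euch difference closest to 0 was -3.04, and in P14 wild type they were 1.53 and -0.952, all without chromosome 14. Without chromosomes 14 and 19, chosen after seeing the data, the differences were -0.768 and 0.261 in 2-month wild type and 2.14 and -1.23 in P14 wild type, and 27.9% of bases changed with age and 24.4% in the knockout. The median over autosomes was 2.48 for het and -3.35 for euch in the knockout, and 1.01 and -0.664 in P14 wild type. With a width of 10 Mb the 2-month differences were 3.09 and -2.96.

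The net with age kept its sign throughout. It was 7.16 at 3 Mb, 1.66 at 10 Mb and 1.20 as a median, and its difference from the rest was 7.44 and 1.91 at those widths. The knockout net kept its sign too, at -1.04 away from domain edges. The share of bases that changed was 12.7% with age and 9.67% in the knockout away from edges, and 24.4% and 20.9% without domains under 5 kb. It was 24.4% in the knockout as a median, and up to 27.9% with age without chromosome 14. The first 200 kb had 69.4% het in the knockout. Windows past 0.25 numbered 25 more open and 8 more closed with age, 1 and 8 in the knockout. With windows of 500 kb, 7 of 190 opened and 9 closed by over 0.5 with age, where 4.25% and 10.7% of all such windows did. In the knockout 4 of 190 closed, where 1.51% of all such windows did. Domains per Mb stayed within 1.5 times the reported values. The lists give no depth, so its limits are unknown.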

Other observations

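Chromosome X was outside the rule, and its first 5 Mb after the gap was more closed than the rest of X in all 3 maps. Het covered 61.9% of it in 2-month wild type, 58.8% in the P14 Ezh1/2 knockout and 55.7% in P14 wild type, against 41.8%, 36.7% and 37.6% in the rest of X. Euch covered 25.0%, 28.0% and 28.8%, against 45.0%, 52.3% and 50.7%. The stretch held 176 domains at 2 months, 176 in the knockout and 258 in P14 wild type. The pools held 3, 3 and 2 females of 5, which cannot be told apart from age or genotype on X.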
